A study of Mus musculus with 8 samples.

Results

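Messenger RNA of the oligodendrocyte lineage and of myelin was examined in the hippocampus of adult male Muta Mouse animals, a transgenic mouse strain that carries a bacterial reporter gene for scoring mutations. The genes were 30 members of a list of known markers, found among 15090 named genes tested by matching the RefSeq accession of each array probe. All 30 were tested, and 28 of them gave a sample (Cy5) signal well above background on all 8 arrays. Control mice (n = 4) received the olive oil vehicle alone, and BaP-exposed mice (n = 4) were gavaged on 3 days with benzo[*a*]pyrene (BaP), a polycyclic aromatic hydrocarbon of combustion products, at a daily 70 mg/kg bw. Hippocampi of both groups were taken 24 hr after the last dose. RNA of each mouse was labeled with Cy5 and hybridized to an Agilent array beside pooled mouse reference RNA in Cy3, and no array had the dyes the other way round.

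Oligodendrocytes wrap axons in myelin, a stack of lipid-rich membrane that speeds conduction and is held together by a small set of abundant proteins. They arise from dividing precursors that carry the growth factor receptor *Pdgfra* and the proteoglycan *Cspg4*, pass through a short-lived newly formed state, and then switch on the genes of the myelin sheath. In the adult hippocampus, mature cells are densest in fiber layers such as the alveus and fimbria, while precursors are spread throughout.

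The labels of some arrays conflict. For 4 of the 8, Control mice 3 and 4 and BaP mice 3 and 4, the title of the sample and its source name give opposite groups. The titles were used here. Grouped by source name, 18 of the 30 log2 fold changes changed sign, and those values are given for the genes with the lowest p and for the stages. The same 4 arrays make up slide row 2, and the other 4 make up slide row 1, so the values within slide row 1 are also the values of the arrays whose labels do not conflict. Over all genes, 3 passed an adjusted p of 0.05 from limma when grouped by title and 0 when grouped by source name, where 2.39% were higher and 2.1% lower at an unadjusted p of 0.05. By title, the beta-globin gene *Hbb-bs* was at 5.05 to 5.46 in Control mice and 2.95 to 3.54 in BaP mice (limma adjusted p = 0.00234), and the endothelial gene *Cldn5* was at 5.25 to 5.39 and 4.69 to 4.87 (limma adjusted p = 0.139). By source name the groups of both genes overlapped. *Hbb-bs* was then at 3.23 to 5.46 in Control mice and 2.95 to 5.13 in BaP mice. *Cldn5* was then at 4.694 to 5.375 and 4.849 to 5.393.

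The measure throughout is the log2 ratio of the Cy5 sample over the Cy3 reference, and a log2 fold change is the mean of BaP-exposed mice minus that of Control mice on this scale, with its standard error (SE). The ratio has the reference in it, so it does not rank one gene's level against another's. In whole tissue, fewer cells of a type and less RNA per cell cannot be told apart. The median Cy5 signal of an array was 108 to 174 over a median background of 67 to 71. Outlier marks numbered 1483 on the array of Control mouse 1 and 310 to 371 on the others. No spot of the 30 genes was saturated.

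None of the 30 genes passed an adjusted p of 0.05 in limma's test, in which 3 of all 15090 genes did (0.0199%). The lowest adjusted p of the list was 0.381 from limma, for *Opalin*. At an unadjusted p of 0.05 from limma, 6 of the 30 were higher in BaP-exposed mice, where 5.07% of all genes were higher at that p. The 6 were *Opalin*, *Cnp*, *Tspan2*, *Gpr37*, *Gal3st1* and *Ppp1r14a*, and all but *Tspan2* belong to the mature cell. At the same p, 1 gene, *Mobp*, was lower, against 4.37% of all genes. *Opalin* alone had groups that did not overlap, which held for 2.72% of all genes in the higher direction and 2.56% in the lower. In this fit no member reached a fold change of 1.5 in either direction, as 0.954% of all genes did upward and 0.451% downward. Other settings or probes gave some past it. With the scanner software's own log ratio (Feature Extraction), the log2 fold change was 0.77 for *Olig2* and -0.69 for *Olig1*. With that ratio 3.68% of all genes reached the fold upward and 1.6% downward. A dimmer probe of *Tspan2* was at 0.66. Without regard to size, 22 of the 30 were higher and 8 lower, while 50.0% of all genes were higher.

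**Figure D1:**
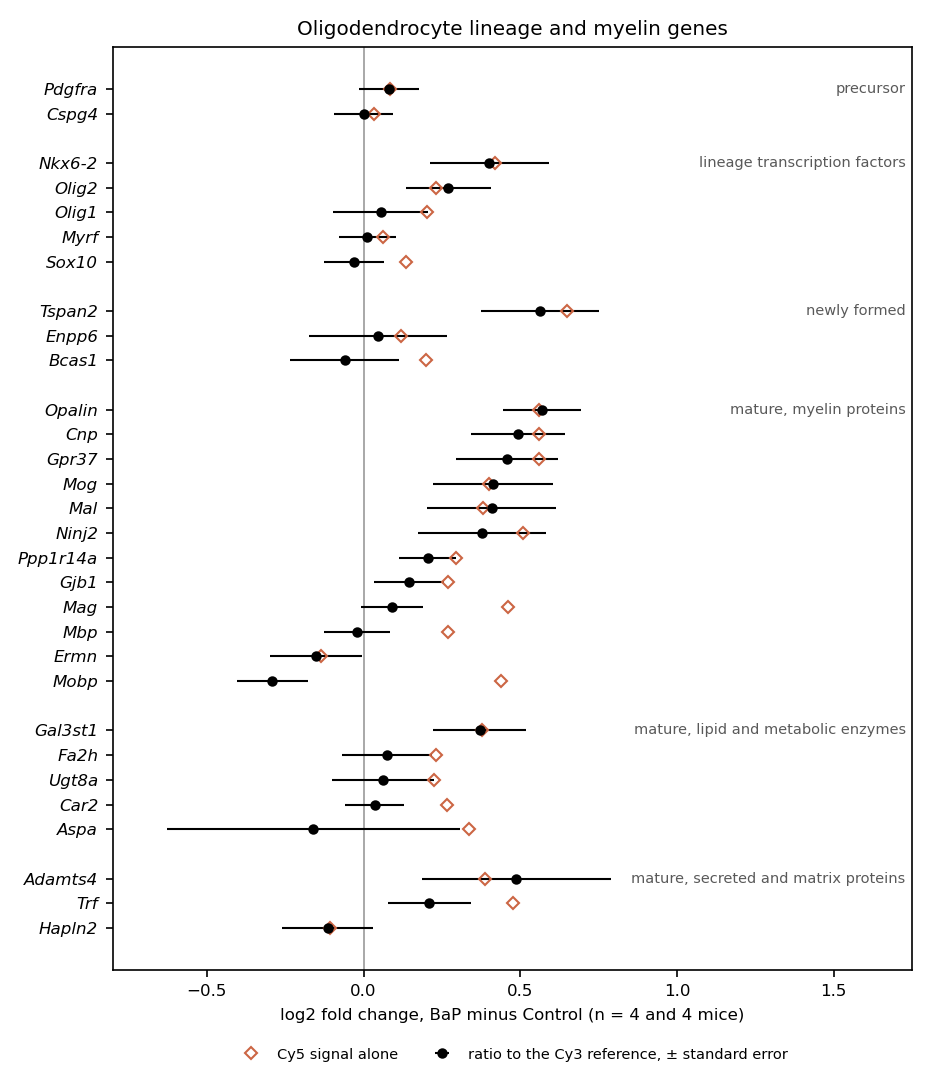
Log2 fold change (BaP minus Control, n = 4 and 4 mice) of the 30 genes, grouped by role. Black points are the ratio to the Cy3 reference with its standard error, and open diamonds the Cy5 signal alone. *Opalin* has the highest ratio difference at 0.57 and *Mobp* the lowest at -0.29, and the diamond of *Mobp* lies at 0.44.

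The precursor genes differed little between the groups. *Pdgfra*, the receptor for platelet-derived growth factor that drives precursor division, had log2 ratios of -1.43, -1.59, -1.28 and -1.45 in Control mice 1 to 4 and of -1.39, -1.17, -1.41 and -1.46 in BaP mice 1 to 4. The groups overlapped, and the log2 fold change was 0.08 (SE 0.10, limma adjusted p = 0.826). For *Cspg4*, which encodes the surface proteoglycan NG2 and is also made by pericytes, Control mice gave 0.05, -0.05, 0.14 and 0.10 and BaP mice 0.17, 0.16, 0.05 and -0.14. The group means of *Cspg4* were 0.06 ± 0.08 and 0.06 ± 0.14 (SD, n = 4 each).

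The lineage transcription factors, 5 in all, were higher in 4 cases and lower in 1 after BaP, none of them past the test. *Olig2*, which specifies the lineage, had log2 ratios of 2.08, 1.98, 2.26 and 1.89 in Control mice and 2.21, 2.68, 2.32 and 2.08 in BaP mice, a log2 fold change of 0.27 (SE 0.14, limma adjusted p = 0.592). BaP mouse 2 was the highest and the other 3 lay within or just above the Control range. Its neighbor *Olig1*, which acts in the maturation of the cells, was at 6.11, 5.99, 6.46 and 6.37 in Control mice and at 6.22, 6.59, 6.39 and 5.95 in BaP mice. *Sox10*, needed for terminal differentiation, was at 3.42, 3.32, 3.33 and 3.30 against 3.34, 3.37, 3.46 and 3.08. For both *Olig1* and *Sox10*, BaP mouse 4 was the lowest of all 8 mice, and their log2 fold changes were 0.05 and -0.03. *Nkx6-2*, a homeodomain factor of the myelinating stage, was higher by 0.40 (SE 0.19, limma adjusted p = 0.584), with 1.39 to 1.94 in Control mice and 1.59 to 2.48 in BaP mice. With the log ratio of Feature Extraction the log2 fold changes were -0.075 for *Nkx6-2*, -0.69 for *Olig1* and 0.77 for *Olig2*, and by source name that of *Nkx6-2* was -0.11.

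*Myrf*, the master regulator that switches on myelin genes, gave a dim spot. It was well above background on 4 of the 8 arrays, 1 of Control and 3 of BaP mice. Its log2 ratios were -0.32, -0.28, -0.41 and -0.25 in Control mice and -0.34, -0.48, -0.15 and -0.25 in BaP mice, and the log2 fold change of 0.01 (SE 0.09) therefore rests on signals near background.

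The 3 genes of newly formed oligodendrocytes had log2 fold changes of 0.56 for *Tspan2*, 0.05 for *Enpp6* and -0.06 for *Bcas1*. Whether these differ from each other was not tested. *Tspan2*, a tetraspanin of early myelinating cells, had log2 ratios of 4.95, 4.35, 4.21 and 4.44 in Control mice and 4.93, 5.33, 5.29 and 4.64 in BaP mice. Control mouse 1 was as high as BaP mouse 1, and the log2 fold change was 0.56 (SE 0.19, limma adjusted p = 0.50; exact permutation test, 2-sided, p = 0.0857). A dimmer probe of *Tspan2* read 3.96, 3.40, 3.58 and 3.87 against 4.21, 4.84, 4.25 and 4.14, with no overlap and a log2 fold change of 0.66 (SE 0.17).

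The other newly formed genes lay near 0. *Enpp6*, a choline-specific phosphodiesterase that marks cells just starting to differentiate, gave 1.20, 0.82, 0.76 and 0.91 in Control mice and 0.81, 1.47, 1.27 and 0.32 in BaP mice. The BaP mice enclosed the whole Control range, and the spot of BaP mouse 4 was not well above background. *Bcas1*, found in cells that are actively making myelin, gave 5.69, 5.14, 5.04 and 5.46 against 5.07, 5.69, 5.27 and 5.07, with a log2 fold change of -0.06 (SE 0.17). Control mouse 1 and BaP mouse 2 were each the highest of their group in all 3 newly formed genes.

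Mature cells were represented by 20 genes, 15 of them higher and 5 lower after BaP. The 12 myelin and membrane proteins had a median log2 fold change of 0.29, with 9 higher and 3 lower. *Opalin*, a transmembrane protein of oligodendrocytes in the central nervous system, had log2 ratios of 2.57, 2.89, 2.58 and 2.87 in Control mice and 3.21, 3.48, 3.46 and 3.04 in BaP mice. Every BaP mouse was above every Control mouse, with means of 2.73 ± 0.18 and 3.29 ± 0.21 (SD, n = 4 each). The difference was 1.48-fold, or 0.57 on the log2 scale (SE 0.13, limma adjusted p = 0.381; exact permutation test, 2-sided, p = 0.0286, the smallest this design allows). The difference in *Opalin* was 0.62 within slide row 1 and 0.52 within slide row 2, and grouped by source name it was 0.05. With the log ratio of Feature Extraction it was 0.33 (SE 0.49), and the groups of *Opalin* then overlapped.

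*Cnp*, the cyclic nucleotide phosphodiesterase that keeps cytoplasmic channels in myelin open, was at 4.39, 3.96, 3.97 and 3.85 in Control mice and at 4.36, 4.83, 4.65 and 4.29 in BaP mice. Control mouse 1 lay inside the BaP range and the other Control mice below it. The log2 fold change of *Cnp* was 0.49 (SE 0.15, limma adjusted p = 0.498). *Gpr37*, an orphan receptor of maturing oligodendrocytes, was at 4.95, 4.81, 4.91 and 4.91 in Control mice and at 5.16, 5.67, 5.67 and 4.91 in BaP mice, a log2 fold change of 0.46 (SE 0.16, limma adjusted p = 0.515). Control mice were close together for *Gpr37* (SD 0.06), 3 BaP mice lay above them and BaP mouse 4 lay among them.

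*Ppp1r14a*, which encodes a phosphatase inhibitor, was at 3.51, 3.44, 3.55 and 3.64 in Control mice and at 3.58, 3.80, 3.89 and 3.67 in BaP mice, a log2 fold change of 0.20 (SE 0.09, limma adjusted p = 0.57). *Mog*, a glycoprotein of the outermost myelin layer, was at 2.27, 2.06, 1.88 and 1.72 in Control mice and at 2.24, 2.89, 2.51 and 1.95 in BaP mice. BaP mice 2 and 3 exceeded all Control mice for *Mog*, and BaP mouse 4 lay below 2 of them (log2 fold change 0.41, SE 0.19, limma adjusted p = 0.581). *Mal*, a proteolipid of myelin membrane sorting, and *Ninj2*, an adhesion protein, had log2 fold changes of 0.41 and 0.38, with SEs of 0.21 and 0.20. The gap junction gene *Gjb1* was higher by 0.15 (SE 0.11).

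**Figure D2:**
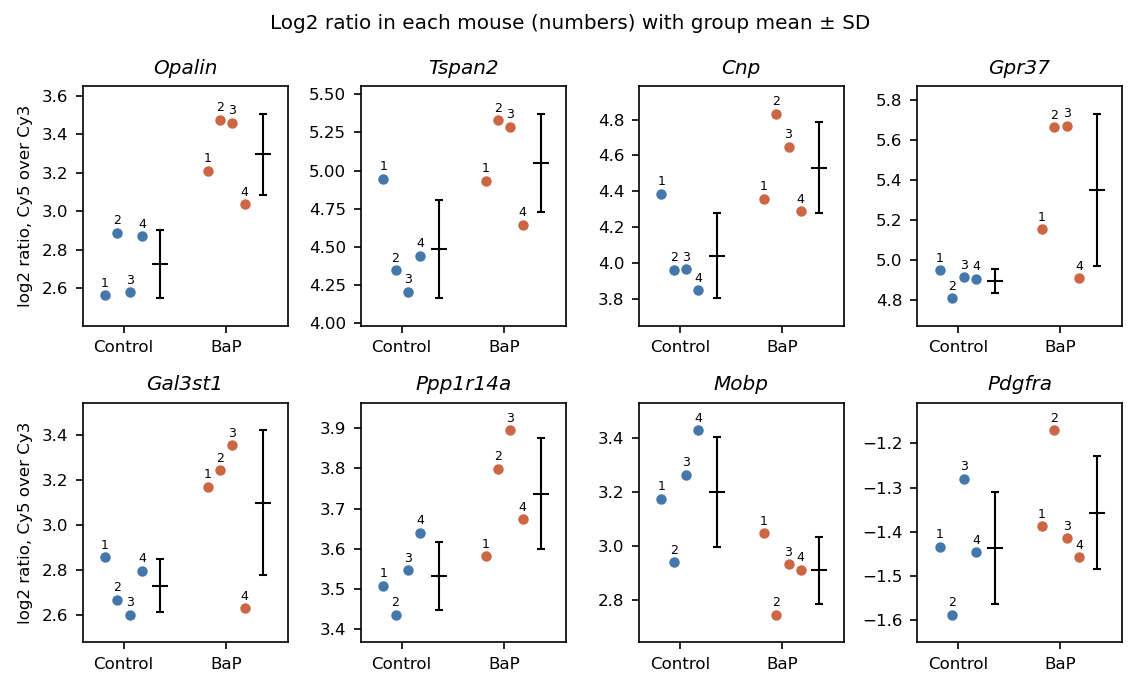
Log2 ratio of Cy5 over Cy3 in each of the 4 Control and 4 BaP mice (points, with mouse numbers) and the group mean ± SD, for the 7 genes with an unadjusted p of 0.05 or less and for the precursor gene *Pdgfra*. Each panel has its own axis. Only the groups of *Opalin* do not overlap, and BaP mouse 4 lies lowest of the BaP mice in *Opalin*, *Tspan2*, *Cnp*, *Gpr37* and *Gal3st1*.

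Other widely used myelin markers were near 0 or lower on the ratio scale. *Mbp*, myelin basic protein, which seals the cytoplasmic faces of the sheath, was at 3.81, 3.94, 3.81 and 4.13 in Control mice and at 3.82, 4.06, 3.73 and 3.99 in BaP mice, a log2 fold change of -0.02 (SE 0.11). Its other probes were at -0.23 (SE 0.11), for one nearly as bright, and at 0.02 (SE 0.17). *Mag*, an adhesion molecule of the axon-facing layer, was at 5.34, 5.19, 5.17 and 5.19 against 5.22, 5.50, 5.41 and 5.13, a log2 fold change of 0.09 (SE 0.10). The cytoskeletal gene *Ermn* was lower by 0.15 (SE 0.15), and its second probe was higher by 0.05. *Mobp*, a basic protein of the major dense line of myelin, was at 3.17, 2.94, 3.26 and 3.43 in Control mice and at 3.05, 2.75, 2.93 and 2.91 in BaP mice. Its log2 fold change was -0.29 (SE 0.11, limma adjusted p = 0.537; exact permutation test, 2-sided, p = 0.0571), and only Control mouse 2 lay within the BaP range.

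The direction of *Mobp* depended on the probe and on the channel. Of its dimmer probes, that next in brightness was higher by 0.16 (SE 0.11) in BaP-exposed mice and the dimmest by 0.30 (SE 0.16). In the Cy5 signal alone, quantile normalized and without the reference, the brightest probe of *Mobp* was higher by 0.44 (SE 0.26). The Cy3 signal of this spot, taken as log2 over the median of its array, was 1.87, 1.61, 1.04 and 1.37 on the arrays of Control mice 1 to 4 and 2.01, 2.99, 2.54 and 1.46 on those of BaP mice 1 to 4. The same reference RNA was on every array, yet the Cy3 signal spanned 1.95, a range that 0.477% of all genes matched. The arrays with the brightest Cy3 spot, those of BaP mice 2 and 3, also had the brightest Cy5 spot of *Mobp*, at 4.89 and 4.79 over the array median, against 3.66 to 4.46 on the others.

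A Cy3 signal that varied between arrays was common in the list. The median range of Cy3 over the 8 arrays was 0.574 for the 30 genes and 0.265 for all genes tested. Of the 30 genes, 25 exceeded that median of all genes, and 9 were among the widest 10%. *Cnp* and *Tspan2* had ranges of 0.139 and 0.32, whereas *Mag* and *Mbp* had ranges of 1.06 and 0.969. The filter for dim spots used Cy5 only, and the reference was dim for some genes. The log2 Cy3 signal was 6.12 to 6.51 for *Opalin*, 6.06 to 6.25 for *Gpr37* and 6.26 to 6.57 for *Gal3st1*. That of *Olig1* was 6.185 to 6.52 and that of *Nkx6-2* 6.19 to 6.44. The Cy5 signal of *Myrf*, called near background above, was 6.15 to 6.76. The ratios of these genes thus rest on a weak reference. In the Cy5 signal alone, the difference between the groups was 0.46 for *Mag* (SE 0.29), 0.27 for *Mbp* (SE 0.19) and 0.48 for *Trf* (SE 0.24). For *Mobp*, *Mag* and *Mbp* the ratio thus gave the lower of both values. Whether the ratio understates or Cy5 alone overstates their differences was not tested, and there was no dye swap. In Cy5 alone, 28 of the 30 genes were higher and 2, *Ermn* and *Hapln2*, were lower, where 55.3% of all genes were higher. None passed an adjusted p of 0.05 from limma in Cy5 alone, and 7 were higher at an unadjusted p of 0.05, where 5.44% of all genes were.

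**Figure D3:**
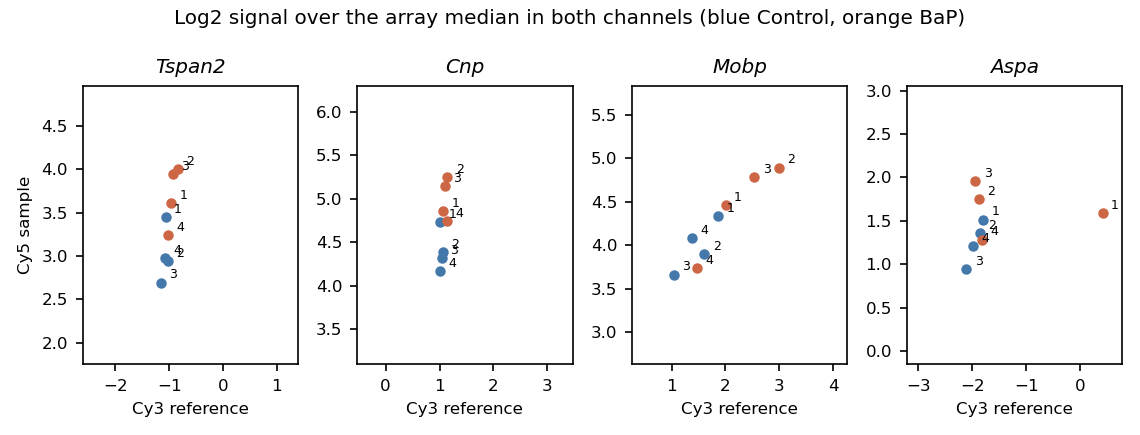
Log2 signal over the median of the array in the Cy5 sample channel against the Cy3 reference channel, for the probe of *Tspan2*, *Cnp*, *Mobp* and *Aspa* on 8 arrays (blue Control, orange BaP, with mouse numbers). Each axis spans the same distance in every panel. The Cy3 signal of *Cnp* spans 0.139, that of *Mobp* spans 1.95 along with Cy5, and that of *Aspa* stands apart on the array of BaP mouse 1.

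The regions just before the start of *Opalin*, *Cnp* and *Mobp* are shown because these 3 genes had the lowest exact permutation p, the second lowest unadjusted p and the only unadjusted p of 0.05 or less in the lower direction. Each is the 250 bases upstream of the annotated start in RefSeq, mouse assembly GRCm38.p6, 5′ to 3′ on the gene's strand, at chr19:41077114-41077363 (minus strand), chr11:100574689-100574938 (plus strand) and chr9:120149492-120149741 (plus strand). Capitals mark matches on either strand to ACAAAG, the core bound by SOX proteins such as Sox10, or to CTGGNAC. The latter is a loose form of the core bound by Myrf and takes any base at N.
Opalin: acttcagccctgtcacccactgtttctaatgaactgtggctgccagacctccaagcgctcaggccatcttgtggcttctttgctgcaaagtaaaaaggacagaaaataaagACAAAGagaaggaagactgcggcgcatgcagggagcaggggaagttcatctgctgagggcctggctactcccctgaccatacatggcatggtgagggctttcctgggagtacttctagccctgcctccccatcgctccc
Cnp: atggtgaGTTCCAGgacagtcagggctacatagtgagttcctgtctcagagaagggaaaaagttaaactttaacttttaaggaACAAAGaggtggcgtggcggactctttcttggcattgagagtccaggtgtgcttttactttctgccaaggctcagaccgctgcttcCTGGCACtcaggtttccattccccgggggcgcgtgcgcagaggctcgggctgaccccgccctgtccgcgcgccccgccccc
Mobp: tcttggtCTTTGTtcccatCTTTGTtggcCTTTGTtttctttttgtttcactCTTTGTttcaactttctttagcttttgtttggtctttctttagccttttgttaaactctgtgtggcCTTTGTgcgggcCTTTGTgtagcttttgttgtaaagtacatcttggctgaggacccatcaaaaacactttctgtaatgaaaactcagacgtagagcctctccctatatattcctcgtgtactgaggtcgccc

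The window of *Mobp* held 6 SOX matches, that of *Cnp* 1 SOX match and 2 matches to CTGGNAC, and that of *Opalin* 1 SOX match. Of 32851 windows of the same length in the promoter table, 16.5% held ACAAAG and 16.1% held CTGGNAC, and 1 window, that of *Mobp*, held 6 or more SOX matches (0.00304%). For the 21 genes of the list with a window, 8 of 29 windows (27.6%) held each motif. The matches are letters in a sequence and do not show that a factor was bound.

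Of the 5 enzymes of myelin lipid synthesis and glial metabolism, 4 were higher and 1 lower, with a median log2 fold change of 0.06. *Gal3st1*, which sulfates galactosylceramide to make the myelin lipid sulfatide, had log2 ratios of 2.86, 2.67, 2.60 and 2.80 in Control mice and 3.17, 3.25, 3.36 and 2.63 in BaP mice. BaP mice 1 to 3 lay above all Control mice and BaP mouse 4 lay within them, and the log2 fold change was 0.37 (SE 0.15, limma adjusted p = 0.539). *Ugt8a*, which makes galactosylceramide, the substrate of *Gal3st1*, was at 3.97, 3.75, 3.38 and 3.63 in Control mice and at 3.77, 3.92, 3.97 and 3.31 in BaP mice, a log2 fold change of 0.06 (SE 0.16). *Fa2h*, which hydroxylates the fatty acids of these lipids, and *Car2*, a carbonic anhydrase, had log2 fold changes of 0.08 and 0.03, with SEs of 0.14 and 0.09.

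*Aspa*, which releases acetate from N-acetylaspartate, was decided by 1 array. BaP mouse 1 had a log2 ratio of 1.49 and the other 7 mice 3.18 to 4.15, which gave a log2 fold change of -0.16 with an SE of 0.47. The Cy3 signal of the *Aspa* spot on that array was 0.42 over its median, against -2.11 to -1.80 on the others, while its Cy5 signal of 1.59 lay inside the range of 0.95 to 1.96. Without BaP mouse 1 the log2 fold change of *Aspa* was 0.41, and in the Cy5 signal alone it was 0.34 (SE 0.16).

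Of the 3 secreted and matrix proteins, 2 were higher and 1 lower, with a median of 0.21. *Trf*, the iron carrier transferrin that oligodendrocytes make and that the choroid plexus also makes, was higher by 0.21 (SE 0.13), and its second probe by 0.31 (SE 0.15). *Adamts4*, a matrix protease of mature cells, ran from -0.46 to 0.53 in Control mice and from -0.24 to 1.1 in BaP mice, a log2 fold change of 0.49 (SE 0.30). *Hapln2*, which links matrix at the nodes of Ranvier, was lower by 0.11 (SE 0.15).

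Set side by side, the medians of the mice overlapped between the groups in each of the 4 stages. The median log2 fold change was 0.04 for the 2 precursor genes, 0.05 for the 5 transcription factors, 0.05 for the 3 newly formed genes and 0.18 for the 20 mature genes, beside -0.0001085 for all genes tested. The newly formed median is the value of *Enpp6*, whose spot was dim. With only probes well above background on all 8 arrays, which leaves out *Enpp6* and *Myrf*, the newly formed median was 0.25, that of the transcription factors 0.16 and that of the mature genes 0.18, so the order of the stages turned. With the log ratio of Feature Extraction the newly formed median was 0.19. Between mice of a group, the median deviation from the control mean had an SD of 0.114, 0.172, 0.301 and 0.167 for the same 4 stages. In BaP mice 1 to 4 the mature median lay 0.08, 0.32, 0.40 and -0.03 from the control mean, and in Control mice 1 to 4 it lay 0.14, -0.07, -0.11 and 0.01 from it. BaP mice 2 and 3 stood above all Control mice, and BaP mice 1 and 4 stood among them. The mature median minus the precursor median of the same mouse was 0.149, 0.0651, -0.227 and -0.005 in Control mice and 0.0023, 0.136, 0.397 and 0.082 in BaP mice, with overlap of the groups.

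Grouped by source name, the other genes with an unadjusted p of 0.05 or less had log2 fold changes of -0.07 for *Cnp*, -0.08 for *Tspan2*, 0.08 for *Gpr37*, 0.08 for *Gal3st1*, 0.01 for *Ppp1r14a* and 0.13 for *Mobp*. For *Cnp*, *Tspan2* and *Mobp* the direction was then the opposite one.

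Within slide row 1 the median of the mature genes was 0.11, and within slide row 2 it was 0.24. The precursor median was 0.20 within slide row 1 and -0.12 within slide row 2. Grouped by source name, the median of the mature genes was -0.03, that of all 30 genes was -0.01, and 14 genes were higher and 16 lower. With the Cy5 signal alone the medians were 0.06, 0.20, 0.20 and 0.38 from precursor to mature, beside 0.02 for all genes.

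**Figure D4:**
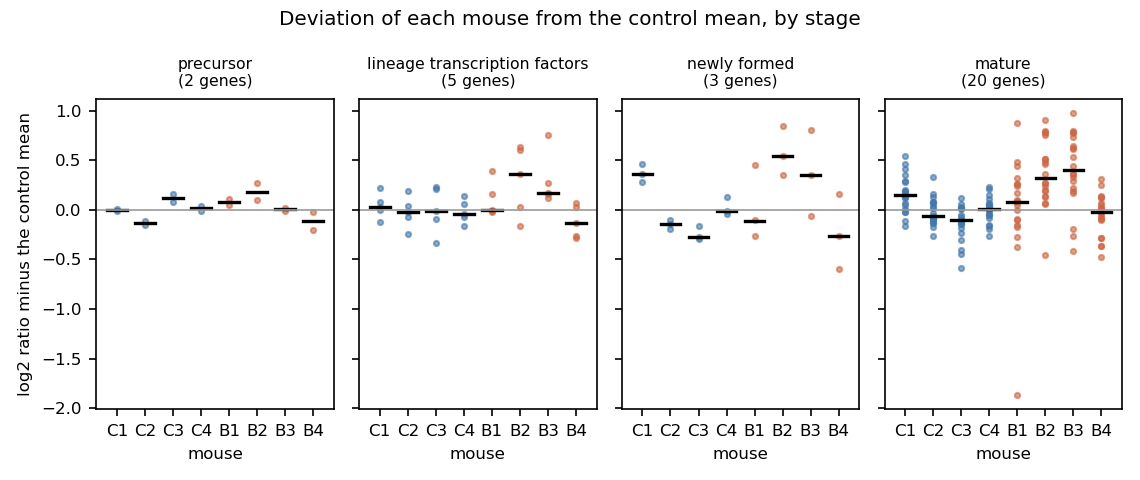
Log2 ratio of each gene minus its mean in Control mice (points) and the median over the genes of a stage (bars), for Control mice (C1 to C4, blue) and BaP mice (B1 to B4, orange). The bars of mature genes lie at 0.32 and 0.40 in BaP mice 2 and 3 and at 0.08 and -0.03 in BaP mice 1 and 4, and the lone point far below belongs to *Aspa* in BaP mouse 1.

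The order of the mice was shared by many of the genes. Control mouse 1 was the highest of its group in 20 of the 30 genes, and in 25.8% of the 14877 genes with a value on every array. BaP mouse 4 was the lowest of its group in 21 and the highest in 0, while over all genes it was lowest in 29.7% and highest in 21.8%. BaP mice 2 and 3 were each highest in 14, and over all genes in 24.4% and 29.4%. Without BaP mouse 4, 10 of the 30 genes were higher at an unadjusted p of 0.05 (6.87% of all genes) and 5 were higher with no overlap (6.41%). Without Control mouse 1 these counts were 9 (5.14%) and 5 (4.97%). They were 3 (2.55%) and 1 (3.31%) without BaP mouse 2, and 3 (3.1%) and 1 (3.74%) without BaP mouse 3, so the count without overlap was then at the share of all genes.

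A wider list of 51 other genes used as oligodendrocyte markers was read in the same fit, and 50 were tested. BaP-exposed mice were higher in 36 and lower in 14, and none passed an adjusted p of 0.05 from limma (lowest 0.498). The 27 mature genes had a median of 0.20 with 23 higher, the 12 precursor genes a median of 0.04 and the 11 newly formed genes a median of 0.01. At an unadjusted p of 0.05, 4 of the 50 were higher and 3 lower, beside 5.07% and 4.37% of all genes. Among the higher genes were *Tmem125* (log2 fold change 0.53, SE 0.16), the sialidase gene *Neu4* (0.29, SE 0.12) and the myelin proteolipid gene *Pllp* (0.21, SE 0.08).

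The 3 lower genes of that list were *Gpr17*, *Ccnd1* and *Nkx2-2*. *Gpr17*, a receptor that marks committed precursors and is lost as they mature, was at 5.18, 5.07, 5.32 and 5.36 in Control mice and at 4.72, 5.06, 4.91 and 4.98 in BaP mice, a log2 fold change of -0.31 (SE 0.10, limma adjusted p = 0.498). Every BaP mouse was below every Control mouse for *Gpr17*, with BaP mouse 2 just under Control mouse 2. *Ccnd1*, a cyclin of dividing cells, was lower by 0.29 (SE 0.11), and *Nkx2-2*, a transcription factor of precursors, was lower by 0.21 (SE 0.09). The proteoglycan gene *Vcan*, of precursors, was higher in every BaP mouse than in any Control mouse, by 0.13 (SE 0.07). *Gpr17* and *Vcan* were the only genes without overlap among the 50, 1 in each direction, beside 2.56% lower and 2.72% higher of all genes.

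Markers of other cells in the tissue were read beside these genes. For the choroid plexus, 12 of 12 markers were higher in BaP-exposed mice (median 0.84 on the log2 scale), none at an adjusted p of 0.05. Their mean log2 ratio was 3.54, 2.48, 4.00 and 2.09 in Control mice 1 to 4 and 1.53, 4.66, 5.04 and 4.09 in BaP mice 1 to 4, so BaP mice 2 and 3, the highest for the mature genes, were also the highest here, while BaP mouse 4 was high here and low for the mature genes. The part of the choroid plexus in the values of *Trf* was not tested. Astrocyte markers had a median of -0.10 (3 of 12 higher), microglia 0.02 (7 of 12), endothelium and pericytes -0.02 (6 of 12) and hippocampal neurons 0.02 (7 of 12), with none at an adjusted p of 0.05. All 12 neuron markers, among them *Prox1* of dentate granule cells, were well above background on all 8 arrays. Of 8 erythroid markers 7 were lower, with a median of -0.69 and 2 at an adjusted p of 0.05 from limma.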

How the data were processed

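Total RNA of 8 hippocampi was hybridized to 8 two-color arrays on 1 slide, scanned and read with Agilent Feature Extraction 11.0.1.1 per the file headers. The authors deposited spot intensities of both channels (medians were used), a log10 ratio, and a table of log2 ratios that the methods describe as LOWESS-normalized. The deposited log2 ratios had medians of -0.0457 to -0.0343 per array and served as an alternative.

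Intensities were background-corrected with normexp (offset 50) with limma 3.58.1 (R 4.3.3). The control spots were dropped, outlier spots were set to missing, loess was applied within arrays, and spots of a probe were averaged. Of 55681 probes, 32600 had a Cy5 signal well above background on 4 arrays or more and were tested with lmFit and eBayes, with Benjamini-Hochberg adjustment over all of them. The methods' analysis of variance for microarrays was replaced by limma, with a gene-wise F test as an alternative. Of 28685 probes with a RefSeq accession, 27235 (94.9%) were named through a RefSeq table. The probe brightest in Cy5 stood for a gene, 6 of the 30 genes having more than 1. Exact permutation tests were 2-sided over 70 assignments of 8 arrays, with 0.0286 as the smallest p. On data simulated for BaP against Control over 32600 probes, limma recovered 88 of 100 probes changed by 1 on the log2 scale and 99 of 100 changed by 2, with 14 false calls. The noise was drawn independently for each probe, and these changes exceed every log2 fold change of the 30 genes in the main fit (highest 0.57). The rates thus do not tell how often changes of the size seen here are found. Summaries used Python 3.11.15, pandas 2.3.3 and numpy 2.4.6.

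The members, stages and marker lists were chosen with earlier results of these data known. Values per mouse are given for members with no overlap of the groups or an unadjusted p of 0.05 or less, and for 16 members fixed by name. Genes of the wider list were named by the same rule on overlap and p, most with the fold change alone. *Nkx6-2* and *Aspa* were singled out after their values were seen. The Cy3 signals were examined after the data were seen. Mice of the same number did not deviate together (correlations -0.354 to 0.0313), so the numbers were not taken as pairs. Each array is 1 mouse, and precision is limited by their number. The alternatives are given in the closing section. The RNA-seq and RT-PCR data of the study were not analysed here. Some genes of the wider marker list are counted but not reported here by name.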

Additional observations from a re-analysis of the deposited data

Results flagged for a closer look

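In 1 of 60 groups of 4 mice examined, a single mouse stood far from its group, and chance alone gives about 3 such groups. It was *Mag* in Control mice, where the gap between Control mouse 1 and the nearest mouse took up 0.89 of the range of the group. Control mouse 1 was at 5.34 and the others at 5.17 to 5.19.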

How the results depend on the processing

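No member passed the adjusted p in any of the alternatives run. Without 1 mouse at a time, genes higher at an unadjusted p of 0.05 numbered 3 to 10 and lower 0 to 1, genes without overlap 1 to 5 higher and 0 to 1 lower, and genes past the adjusted p 0 to 0. The medians ran from 0.0659 to 0.211 for all genes, -0.00746 to 0.0899 for precursor genes (negative without BaP 2 or Control 2), 0.0133 to 0.168 for transcription factors, -0.12 to 0.262 for newly formed genes (negative without BaP 2, BaP 3 or Control 3) and 0.113 to 0.284 for mature genes.

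Genes without overlap in the higher direction numbered 3 without background correction (3.34% of all genes), 0 with the Feature Extraction ratio (3.29%), 3 with median centring (10%), 3 with the authors' ratios (2.93%), 2 with Cy5 alone (3.29%), 10 within slide row 1 (20.1%) and 9 within slide row 2 (18.7%), and in the lower direction 1 (19.8%) and 2 (19.9%) within the rows. Genes higher at the unadjusted p numbered 15 with median centring (22.5% of all genes), 3 within row 1 (3.31%) and 1 by source name (2.39%). Genes lower at that p numbered 0 with median centring (0.278%), Cy5 alone (2.8%), the mean over probes (3.93%), the F test (3.99%), source names (2.1%) and within row 1 (4.39%). Median centring moved the median of all genes to 0.21, and beside it all 30 genes had 0.317, precursor 0.294, transcription factors 0.252 and mature 0.382. With Cy5 alone all 30 had 0.283 and mature 0.381. Within row 1, and so on the 4 arrays without conflicting labels, precursor had 0.20 and transcription factors 0.291. Within row 2 precursor had -0.12 and newly formed -0.038. The Feature Extraction ratio gave transcription factors -0.075. By source name all 30 had -0.0101, mature -0.0286 and precursor 0.16. Signs changed in 18 of 30 genes by source name, 6 with Cy5 alone, 6 with the Feature Extraction ratio, 5 with median centring, 7 without BaP 3, 5 without BaP 4 and 0 to 4 in each other alternative. Those with both values beyond their SE were *Ermn* (0.134 with median centring), *Mobp* (0.437 with Cy5 alone) and *Ninj2* (-0.282 by source name). Apart from these constructions, the cause was not tested.

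With the replicate number as a block, 0 genes passed the adjusted p (lowest 0.665), 6 were higher (4.53% of all genes) and 1 lower (3.39%) at the unadjusted p, and 0 changed sign; the numbers do not pair the mice (own number the best match in 0 of 4). Naming probes by a gene name column was not run, since the array files used here have no such column. Dim probes of *Myrf* and *Enpp6* limit those genes: without them the newly formed median was 0.252 and that of the transcription factors 0.163.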
